A study of Mus musculus with 14 samples.

Results

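Aminoacyl-tRNA synthetases, the enzymes that load each amino acid onto its tRNA, were followed in mouse F4/80+ cells of leukemic marrow and in cultured macrophages, each with and without the cytokine IL4. The members were chosen by symbol: a capital letter followed by ars, alone or ending in 2 or l2, together with Eprs, Farsa, Farsb and the scaffold genes Aimp1, Aimp2 and Eef1e1. This gave 39 of the 9474 genes in both tables: 21 genes of cytosolic enzymes, 15 of mitochondrial enzymes and 3 of scaffold proteins. In the marrow experiment, F4/80+ cells were sorted from the marrow of C57BL/6J mice given acute myeloid leukemia (AML) cells 12 days earlier, the leukemia carrying an IL4 cDNA (3 libraries) or, as control, an empty vector (3 libraries); the series description calls the control leukemia wild type. In the culture experiment, marrow monocytes of the same strain grew for 7 days in CSF1 with 20 ng/mL IL4 (4 libraries) or in CSF1 without it (4 libraries). CSF1 is given as 25 ng/mL in the growth protocol and as 20 ng/mL in the series description. By both descriptions every marrow animal carried leukemia, so the marrow controls are not healthy marrow. The sample titles of the marrow controls hold the prefix NBM, which is not explained. IL4 came from the leukemia cells rather than as a measured dose. The labels do not say whether libraries of a group came from separate animals or cultures, so p-values measure the spread between libraries, which may be technical.

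A synthetase joins an amino acid to the tRNAs that carry its anticodon, and protein synthesis stalls where charged tRNA runs short. Cells keep a cytosolic set and a mitochondrial set, the second usually encoded by its own gene with the ending 2; Gars and Kars serve both compartments. In animals 8 of the cytosolic enzyme genes here (Dars, Eprs, Iars, Kars, Lars, Mars, Qars and Rars) encode parts of the multisynthetase complex, held together by the scaffold proteins of Aimp1, Aimp2 and Eef1e1. Uncharged tRNA activates the kinase GCN2, which leads to translation of the transcription factor ATF4, and ATF4 raises many cytosolic synthetase genes together with amino acid transporters and biosynthetic enzymes. In macrophages IL4 drives alternative activation through STAT6.

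The deposited values were log2 values, and whole reads could be recovered from them for 9403 genes, all 39 members included. Recovered reads summed to between 522942 and 839259 per library, and the median gene had 23 to 41 of them, so low genes have wide counting error. Against their controls the median gene changed by -0.06 in marrow and by -0.36 in culture on the log2 scale, so counts are also given after each library was set to the same median (median centring). The culture libraries numbered 4, in both groups, stood apart from the other libraries of their group: the chi-square per degree of freedom between them and the others was 4.18 to 5.93, against 1.38 to 2.20 among the others. The label of sorted macrophages was checked against markers. In marrow, 6 macrophage genes (Emr1, which encodes F4/80, Csf1r, Cd68, Mertk, Fcgr1 and Mrc1) together had 337 to 867 RPM (recovered reads scaled to equal library totals) in IL4 libraries and 570 to 762 in control libraries, while 3 neutrophil genes (S100a8, S100a9, Ngp) had 43305 to 53470 in IL4 libraries and 59908 to 67738 in control libraries. Reads of Lyz2, also a macrophage gene, could not be recovered, so it is missing from the macrophage sums. The 3 neutrophil genes were far more abundant than the 6 summed macrophage genes in the sorted marrow cells. This goes against a pure macrophage population, but RPM sums give no share of cells. In culture the same macrophage genes had 5210 to 5800 RPM with IL4 and 7986 to 9076 without it, and the neutrophil genes had 0 to 3.2 with IL4 and 4.54 to 57.2 without it. In such bulk libraries fewer cells of a type and less RNA per cell cannot be told apart.

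In leukemic marrow, IL4 went with higher RNA of 11 cytosolic synthetases and 1 mitochondrial one. Of the 39 members, 12 rose and 1 fell (limma, Benjamini-Hochberg adjusted p below 0.05 over all genes), or 30.8% and 2.56%, against 6.7% and 11.5% of all 9474 genes. The 12 were Lars, Lars2, Eprs, Dars, Aars, Gars, Nars, Tars, Sars, Yars, Cars and Iars, and the member that fell was Tarsl2. Among the cytosolic enzymes 11 of 21 rose and the median change was 0.75 on the log2 scale, against 0.06 among the mitochondrial enzymes, -0.11 among the scaffold genes and -0.06 over all genes. After median centring 14 members rose and 0 fell, with 9.45% and 8.92% of all genes rising and falling. Every IL4 library stood above every control library for 17 members and below for 2, against 15.5% and 22.1% of all genes. Leaving out any 1 marrow library left 10 to 13 members risen. The summed reads of neutrophil markers and of the 25 genes of dividing cells were lower in the IL4 libraries of the same comparison. Other marker sets shifted as well, erythroid and B cell genes among them, as given below. The part of these shifts in the synthetase changes was not tested.

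**Figure D1:**
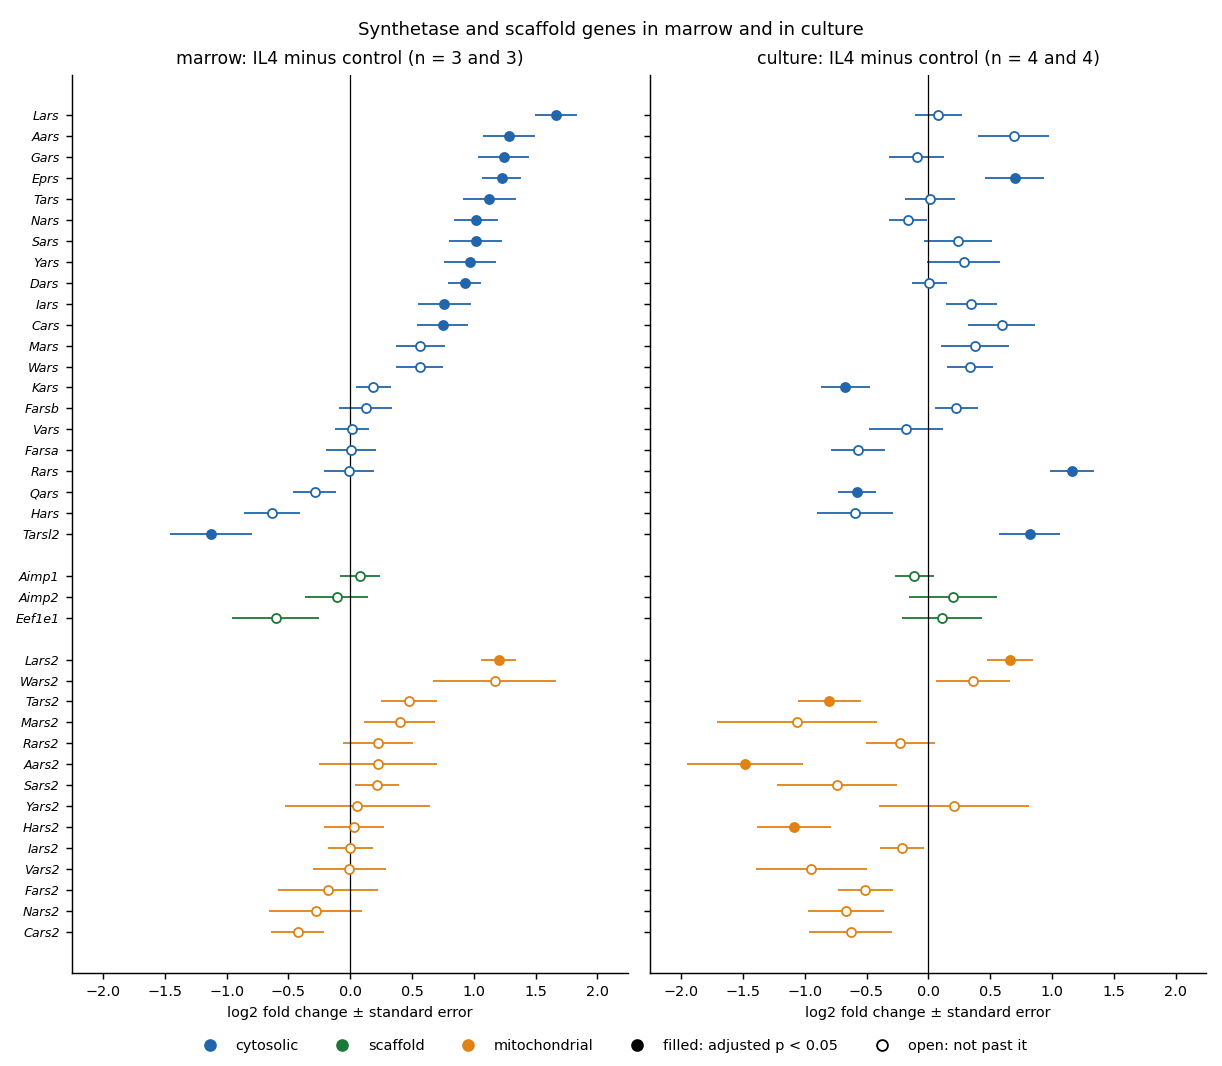
Change of the members with IL4, as log2 fold change (x axis) with its standard error, in marrow (left, 3 IL4 and 3 control libraries) and in culture (right, 4 and 4); filled points passed an adjusted p of 0.05. In marrow 11 blue cytosolic points lie filled to the right of 0, while in culture filled points lie on both sides.

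Lars, the leucyl enzyme, which also reports leucine to the growth kinase mTORC1, had the largest change of the 39 in marrow. Its log2 values were 7.08, 7.67 and 7.26 in marrow IL4 libraries, against 5.61, 5.66 and 5.74 in marrow controls. The groups lay far apart, with a log2 fold change of 1.66 ± 0.17 (SE; 3.17-fold, adjusted p = 0.000358). Eprs encodes a fused enzyme for glutamate and proline. It stood at 6.40, 6.78 and 6.49 in IL4 libraries, against 5.45, 5.24 and 5.31 in controls. The difference was 1.23 ± 0.16 (2.34-fold, adjusted p = 0.00105), and no library of one group reached the other.

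Dars, the aspartyl enzyme, had 6.76, 6.87 and 6.65 in marrow IL4 libraries, against 5.75, 5.90 and 5.86 in controls. It was the tightest of the risers, at 0.93 ± 0.13 (1.90-fold, adjusted p = 0.0018). Aars, the alanyl enzyme, had 5.46, 5.67 and 5.40 with IL4 and 3.95, 4.61 and 4.12 without it. Its change was 1.28 ± 0.21 (2.43-fold, adjusted p = 0.00332), with marrow control 2 the highest control. Exons of Exosc6, an RNA exosome subunit, overlap those of Aars on the same strand over 14.3% of Aars exon bases, and Exosc6 itself gave -0.55 ± 0.55 in marrow (adjusted p = 0.538).

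Gars, which makes the glycyl enzyme of cytosol and mitochondria, had 6.01, 6.70 and 5.99 in marrow IL4 libraries, against 5.07, 5.0 and 4.90 in controls. All IL4 libraries lay above the controls, with replicate 2 the highest (1.24 ± 0.21, 2.36-fold, adjusted p = 0.00373). Nars, the asparaginyl enzyme, had 6.20, 6.62 and 6.44 with IL4 and 5.52, 5.54 and 5.14 without it. It was 2.02-fold higher (1.02 ± 0.18, adjusted p = 0.00423). Tars, the threonyl enzyme, had 4.74, 5.20 and 4.80 with IL4 and 4.0, 3.73 and 3.63 without it, and was 2.18-fold higher (1.13 ± 0.21, adjusted p = 0.0062). Sars, the seryl enzyme, had 5.08, 5.70 and 5.49 with IL4 and 4.18, 4.47 and 4.59 without it, again with no overlap (2.02-fold, 1.01 ± 0.21, adjusted p = 0.0104). Yars (tyrosine), Iars (isoleucine) and Cars (cysteine) rose by 0.97 ± 0.21, 0.76 ± 0.21 and 0.75 ± 0.21, with adjusted p of 0.0129, 0.0365 and 0.0363. Cars and Iars were the risers lost when single libraries were left out, and the other 10 passed each time. The IL4 library numbered 2 was the highest of its group for 11 of the 12 risen members, Lars2 being the exception.

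**Figure D2:**
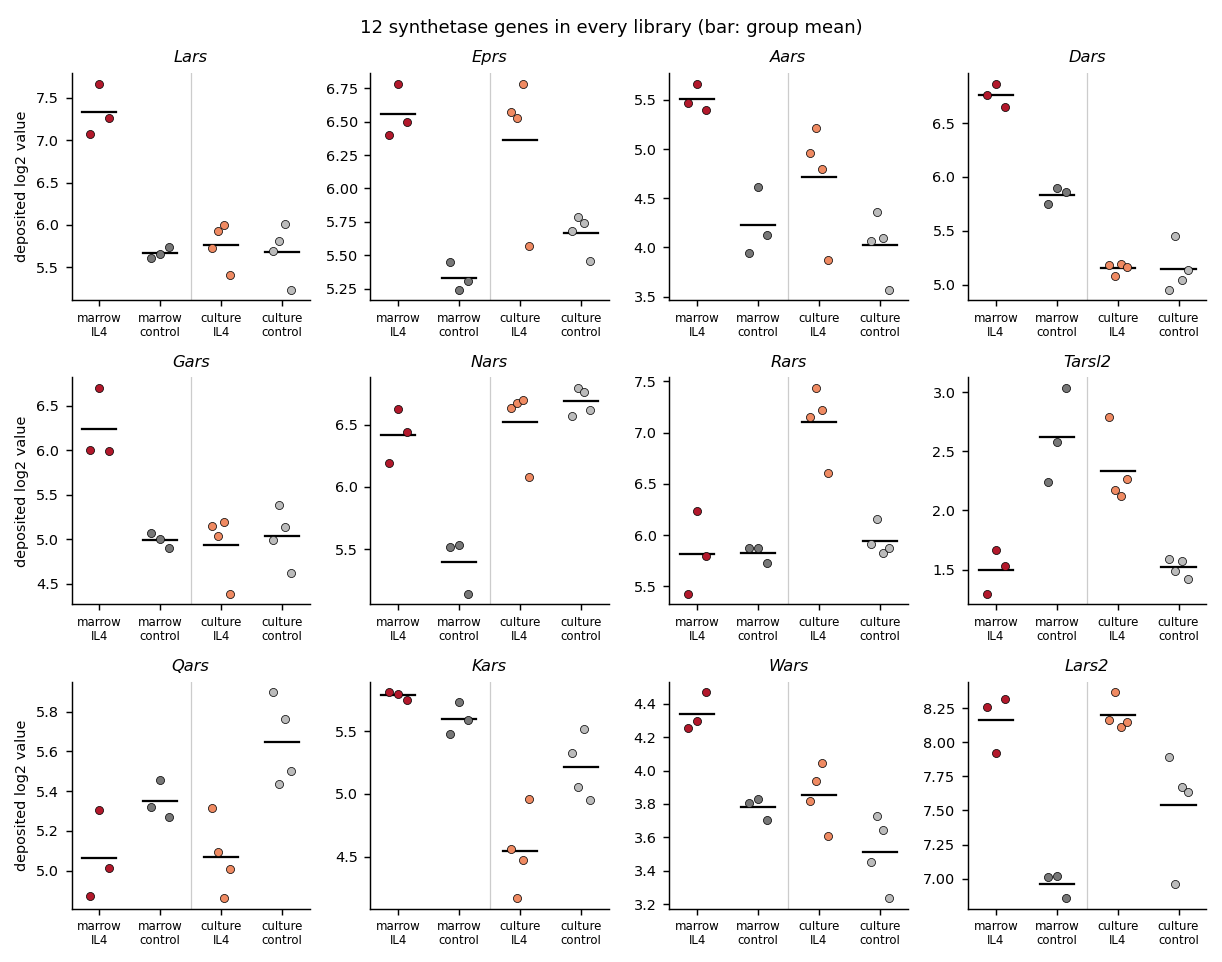
Deposited log2 value (y axis) of 12 members in every library, by group (x axis), with a bar at each group mean; scales differ between panels and log2 values are not comparable between genes. In Lars, Dars and Gars the 3 marrow IL4 points stand apart from all other groups; in Rars the 4 culture IL4 points do.

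Most of the genes that rose in marrow, 10 of 12, are listed as ATF4 targets. Of 13 cytosolic synthetase genes on that list 10 rose and 0 fell, with a median log2 change of 1.01; the other 3 were Mars (methionine, 0.57 ± 0.20, adjusted p = 0.0809), Wars (tryptophan, 0.56 ± 0.19, adjusted p = 0.0735) and Vars (valine, 0.01 ± 0.14). After median centring Mars and Wars passed as well. Of the 8 cytosolic genes not on the list, Dars rose and Tarsl2 fell, and the median was -0.00. The other 6 did not pass: Kars (lysine) gave 0.19 ± 0.14, Farsb and Farsa, the subunits of the phenylalanyl enzyme, 0.13 ± 0.22 and 0.01 ± 0.20, Rars (arginine) -0.01 ± 0.21, Qars (glutamine) -0.29 ± 0.17 and Hars (histidine) -0.63 ± 0.23. The mean deviation of the 13 listed genes, with library medians equal, was 0.38 to 0.74 in marrow IL4 libraries and -0.55 to -0.47 in marrow controls. For the 8 unlisted genes the same means were -0.09 to 0.16 in IL4 libraries and -0.05 to 0.04 in controls, which overlap. The list was chosen with earlier results of these data known, and the difference between the lists was not tested.

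**Figure D3:**
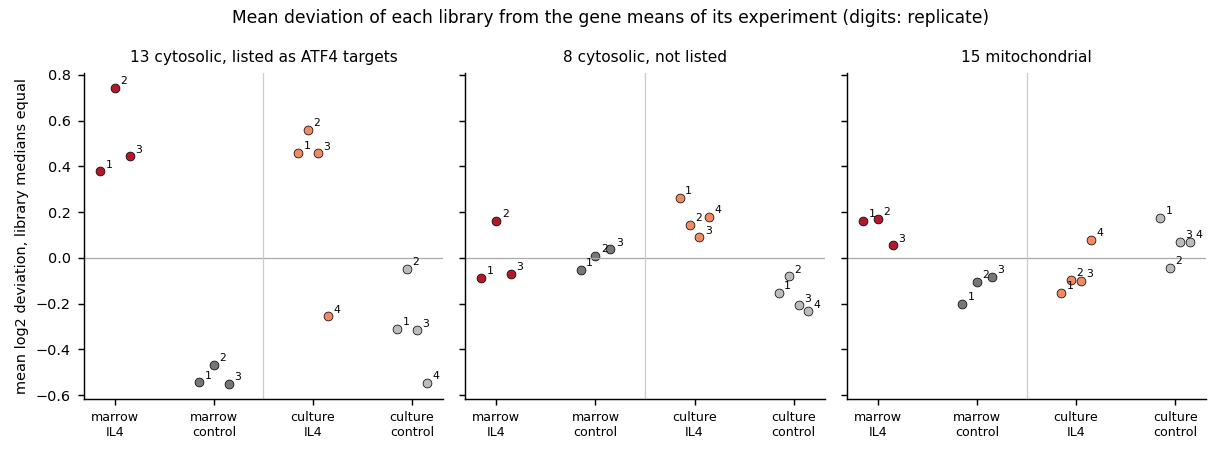
Mean log2 deviation from the gene means of each experiment (y axis) for 3 sets of members, after library medians were made equal; each point is 1 library and the digit its replicate number. For the listed genes marrow IL4 libraries lie at 0.38 to 0.74 and marrow controls at -0.55 to -0.47, and culture IL4 library 4 lies at -0.26, among the culture controls.

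Because ATF4 binds DNA with C/EBP partners at a composite element, the promoters of the members were searched on both strands for its core, TGATGNAA, to show which risers carry it. RefSeq promoters (build GRCm38.p6, 250 bases before to 50 after each start) matched 30 members, and 5 held the core: Aars, Gars, Iars, Tars and Yars. All 5 were among the 9 matched members that rose in marrow, and 0 of the other 21 held it. By class, 5 of 14 matched cytosolic members held it, against 0 of 13 mitochondrial and 0 of 3 scaffold members. Most of the other 21 were mitochondrial or scaffold genes, so the contrast of risers with the rest is largely one between classes. The share was 4.51% among all genes in the promoter table and 2.76% among the 7322 tested genes with a matched promoter. It was 5.8% among the 483 matched genes that rose in marrow. The match nearest the start of each gene is shown on the strand that reads TGATGNAA, with the core in capitals.
Aars, chr8:111033841-111033868, minus strand, 9 bases after the start: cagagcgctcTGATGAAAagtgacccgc
Gars, chr6:55037961-55037988, minus strand, 22 bases before the start: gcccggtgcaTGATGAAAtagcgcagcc
Iars, chr13:49682127-49682154, minus strand, 7 bases after the start: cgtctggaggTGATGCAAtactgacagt
Tars, chr15:11399656-11399683, plus strand, 7 bases before the start: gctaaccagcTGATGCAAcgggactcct
Yars, chr4:129189896-129189923, plus strand, 3 bases after the start: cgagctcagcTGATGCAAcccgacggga

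In all 5 genes this match lay within 22 bases of the annotated start, and in Iars, Tars and Yars it read TGATGCAA. For context, the 250 bases before the Tars start are printed on the gene's own strand, where the core appears as its reverse complement in capitals.
Tars, chr15:11399659-11399908, minus strand: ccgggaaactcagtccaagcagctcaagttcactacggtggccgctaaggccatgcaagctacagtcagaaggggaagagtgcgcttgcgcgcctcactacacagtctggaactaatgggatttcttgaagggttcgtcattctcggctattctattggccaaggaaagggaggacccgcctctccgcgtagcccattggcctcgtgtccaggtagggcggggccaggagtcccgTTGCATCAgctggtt
Among the other risers Eprs, Dars, Sars and Lars2 had a promoter without these letters. Cars, Hars, Hars2, Lars, Nars, Rars, Vars and Wars were not matched. Letters alone do not show binding.

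Of the multisynthetase complex's 8 enzyme genes, Lars, Eprs, Dars and Iars rose in marrow, and Kars, Mars, Qars and Rars did not pass. Of the 13 cytosolic genes outside the complex 7 rose and 1 fell, so the share was 4 of 8 inside and 7 of 13 outside. Of the 3 scaffold genes 0 passed in marrow by limma, and 0 had an unadjusted p below 0.05. Aimp2, which holds the complex together, had 3.05, 2.89 and 2.81 in IL4 libraries, against 2.77, 3.16 and 3.15 in controls. The groups overlapped, at -0.11 ± 0.25 (adjusted p = 0.811). Aimp1 gave 0.08 ± 0.16 and Eef1e1 -0.60 ± 0.35. Exons of Eif2ak1 on the opposite strand cover 29.4% of Aimp2 exon bases, the library kit does not mark strand, and Eif2ak1 fell in marrow (-0.99 ± 0.15, adjusted p = 0.00224), so reads of this pair cannot be told apart where they overlap. By catalytic fold, 4 of 9 cytosolic class I genes and 6 of 11 cytosolic class II genes rose, with Eprs, which holds both, counted apart.

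Tarsl2 moved against Tars in marrow. It encodes a cytosolic threonyl enzyme closely related to that of Tars, and had 1.29, 1.67 and 1.53 in marrow IL4 libraries, against 2.24, 2.58 and 3.04 in controls. It was 2.18-fold lower with IL4 (-1.12 ± 0.33, adjusted p = 0.0451), with no overlap. The call rested on 8 to 14 reads with IL4 and 18 to 34 without it. It was lost after median centring (adjusted p = 0.0582) and when any 1 of the 6 marrow libraries was left out, with adjusted p up to 0.162.

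Of the 15 mitochondrial genes only Lars2, the mitochondrial leucyl enzyme, passed in marrow. Its log2 values were 8.26, 7.92 and 8.32 in IL4 libraries, against 7.01, 7.02 and 6.86 in controls (2.30-fold, 1.20 ± 0.14, adjusted p = 0.000665). Lars2 also differed from the other members in level. Per length of its longest transcript it averaged 548 recovered RPKM in marrow IL4 libraries and 236 in marrow controls (reads scaled to depth and length), while the other 14 mitochondrial genes had medians of 5.77 with IL4 and 6.83 without it, and the 21 cytosolic genes 38.6 with IL4 and 25.2 without it, on that scale. Of the 50-base stretches of its transcript 3, or 0.078%, occurred in another annotated transcript, that of Gm15564. The search covered only exact matches in annotated transcripts, so it cannot show the source of the Lars2 reads. Wars2 gave 1.17 ± 0.50 on 4 to 7 reads with IL4 and 1 to 3 without it, and did not pass (adjusted p = 0.139). Tars2 (0.47 ± 0.23), Mars2 (0.40 ± 0.29), Rars2 (0.22 ± 0.28), Aars2 (0.22 ± 0.48), Sars2 (0.22 ± 0.18), Yars2 (0.06 ± 0.58), Hars2 (0.03 ± 0.24) and Iars2 (0.00 ± 0.18) had positive estimates, and Vars2 (-0.01 ± 0.30), Fars2 (-0.18 ± 0.40), Nars2 (-0.28 ± 0.37) and Cars2 (-0.43 ± 0.22) negative ones. Without Lars2 the mitochondrial genes summed to 339 to 363 RPM with IL4 and 315 to 370 without it, so the groups overlapped. Many of these genes held fewer than 20 reads in a library, a depth at which a change of the size seen in the cytosolic set may not be detectable.

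In culture members moved in both directions at the deposited scale. Here 4 members rose (Rars, Lars2, Tarsl2 and Eprs) and 5 fell (Qars, Hars2, Kars, Aars2 and Tars2), or 10.3% and 12.8%, against 7.96% and 32.6% of all genes. The risen share was thus near that of all genes, and the fallen share was below it. The cytosolic median was 0.23 and the mitochondrial median -0.63, beside -0.36 over all genes. After median centring 9 members rose (Rars, Lars2, Tarsl2, Eprs, Wars, Aars, Iars, Cars and Farsb) and 0 fell, against 14.4% and 12.7% of all genes, so each of the 5 falls depends on the scaling. Every IL4 library stood above every control for 3 members and below for 5, against 7.49% and 30.2% of all genes. Without culture IL4 replicate 4, which stood apart, 9 rose and 7 fell at the deposited scale. Without both libraries numbered 4 the counts were 5 and 7, and with centring as well 15 and 0. Without culture IL4 replicate 1 the count of risers was 2, and without culture IL4 replicate 2 or 3, or culture control replicate 1 or 3, 3 members fell.

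Rars, the arginyl enzyme, had the smallest p in culture. Its log2 values were 7.15, 7.44, 7.23 and 6.61 in culture IL4 libraries, against 5.91, 6.16, 5.83 and 5.87 in culture controls. The groups did not overlap, and the change was 1.16 ± 0.18 (2.24-fold, adjusted p = 0.000747). In marrow Rars had 5.43, 6.23 and 5.79 with IL4 and 5.88, 5.87 and 5.73 without it, with overlapping groups. Lars2 stood at 8.17, 8.37, 8.12 and 8.15 in culture IL4 libraries, against 7.89, 6.96, 7.67 and 7.63 in controls. It was 1.58-fold higher with no overlap (0.66 ± 0.18, adjusted p = 0.0171). Tarsl2, lower in marrow, was higher in culture: 2.79, 2.17, 2.12 and 2.27 with IL4, against 1.59, 1.49, 1.58 and 1.42 without it (1.76-fold, 0.82 ± 0.25, adjusted p = 0.0235). Its groups did not overlap, and the call was lost in 3 of 25 alternative fits.

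Several ATF4-listed genes were high in 3 of the 4 culture IL4 libraries and not in the library numbered 4. Eprs had 6.57, 6.53, 6.78 and 5.57 in culture IL4 libraries, against 5.68, 5.79, 5.74 and 5.45 in controls (0.70 ± 0.24, adjusted p = 0.0383). Replicate 4 fell within the controls, and without it the change was 0.96 (adjusted p = 0.000739). Leaving out any other culture library, of either group, put Eprs above the threshold, with adjusted p between 0.0602 and 0.102. Aars had 4.96, 5.22, 4.80 and 3.87 with IL4 and 4.06, 4.36, 4.09 and 3.57 without it, and did not pass (0.69 ± 0.29, adjusted p = 0.0782). Without replicate 4 of the IL4 group it did (0.97, adjusted p = 0.00687). Sars had 5.68, 5.56, 5.33 and 4.31 with IL4 and 4.93, 5.19, 5.10 and 4.70 without it, and did not pass (0.24 ± 0.28). Here replicate 4 was the lowest of all 8 libraries. Of the 13 listed genes 1 rose at the deposited scale and 5 after centring, and without culture IL4 replicate 4 these counts were 6 and 10. The other listed genes were not called at the deposited scale: Cars gave 0.59 ± 0.27, Mars 0.38 ± 0.28, Iars 0.35 ± 0.21, Yars 0.29 ± 0.29, Lars 0.08 ± 0.19, Tars 0.01 ± 0.20, Gars -0.09 ± 0.22, Nars -0.17 ± 0.15 and Vars -0.18 ± 0.30. After centring all 13 listed genes, Gars, Nars and Vars included, had positive estimates.

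The members that fell in culture at the deposited scale were 2 complex enzymes and 3 mitochondrial ones. Qars, the glutaminyl enzyme, had 5.32, 5.10, 4.86 and 5.01 with IL4, against 5.90, 5.43, 5.76 and 5.50 without it (-0.58 ± 0.16, adjusted p = 0.015). The groups did not overlap, and after centring the value was -0.22 (adjusted p = 0.344). Kars, the lysyl enzyme of both compartments, had 4.56, 4.17, 4.48 and 4.96 with IL4 and 5.33, 5.05, 5.52 and 4.95 without it (-0.67 ± 0.20, adjusted p = 0.0218). Its groups touched at replicate 4 of each, and centring gave -0.31 (adjusted p = 0.265). Hars2, the mitochondrial histidyl enzyme, had 2.07, 3.02, 2.30 and 3.40 with IL4 and 3.51, 3.75, 3.90 and 3.97 without it (-1.09 ± 0.30, adjusted p = 0.0154). Tars2 had 3.33, 3.13, 2.60 and 3.22 with IL4 and 4.45, 3.65, 3.94 and 3.45 without it (-0.80 ± 0.26, adjusted p = 0.0309). For both genes all IL4 libraries lay below all controls, and neither passed after centring (adjusted p = 0.103 and 0.233). Aars2 had 0.92, -0.31, 2.04 and 1.58 with IL4 and 2.22, 2.22, 3.00 and 2.71 without it (-1.48 ± 0.47, adjusted p = 0.0291), on 1 to 6 reads with IL4 and 6 to 11 without it. Of the mitochondrial genes 12 of 15 had a negative estimate in culture, and after centring 9 of 15 did.

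The remaining culture members passed in neither direction. Among cytosolic genes Farsb gave 0.23 ± 0.17, Dars 0.01 ± 0.14, Farsa -0.57 ± 0.22 and Hars -0.59 ± 0.31. Among mitochondrial genes Wars2 gave 0.36 ± 0.30 and Yars2 0.21 ± 0.61, and the estimates of Iars2, Rars2, Fars2, Cars2, Nars2, Sars2, Vars2 and Mars2 ran from -0.21 to -1.06. The scaffold gene Aimp2 had 2.64, 1.47, 1.91 and 3.20 with IL4 and 2.03, 2.10, 2.23 and 2.07 without it. The IL4 libraries spread to both sides of the controls (0.20 ± 0.36, adjusted p = 0.682). Eef1e1 gave 0.11 ± 0.33 and Aimp1 -0.11 ± 0.16.

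The marrow and culture responses were then compared directly, as the marrow change minus the culture change over all 14 libraries. They differed for 9 members: the marrow change was the higher for Lars, Nars, Dars, Gars, Tars, Tars2 and Kars, and the lower for Tarsl2 and Rars. These were 7 and 2 of the 39, against 16.6% and 6.45% of all genes. After centring 7 remained, Tars2 and Kars being lost (adjusted p = 0.0584 and 0.11), against 9.5% and 9.38% of all genes. The direction of the difference was the same for these 9 under all 38 alternative fits.

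Lars had the largest positive difference that passed, 1.58 ± 0.28 (3.00-fold, adjusted p = 0.00109): its culture values were 5.73, 5.93, 6.00 and 5.41 with IL4 and 5.69, 5.81, 6.02 and 5.24 without it. Those culture groups overlapped almost fully, unlike the marrow groups given above. Tarsl2 had the largest negative one, -1.94 ± 0.37 (adjusted p = 0.00195), being lower with IL4 in marrow and higher with it in culture. For Nars the difference was 1.18 ± 0.24 (adjusted p = 0.00284), with 6.63, 6.67, 6.69 and 6.08 in culture IL4 libraries and 6.57, 6.79, 6.76 and 6.62 in culture controls. Dars overlapped in culture, at 5.18, 5.08, 5.19 and 5.16 with IL4 and 4.95, 5.45, 5.04 and 5.13 without it, and its difference was 0.92 ± 0.19 (adjusted p = 0.00312). For Gars it was 1.34 ± 0.33, for Tars 1.12 ± 0.29, for Tars2 1.27 ± 0.36, for Kars 0.86 ± 0.26 and for Rars -1.17 ± 0.28, with adjusted p between 0.0087 and 0.0282. Aars, Eprs, Sars and Lars2 rose in marrow, but their responses were not shown to differ from those in culture (0.59 ± 0.40, 0.53 ± 0.32, 0.78 ± 0.39 and 0.54 ± 0.26).

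**Figure D4:**
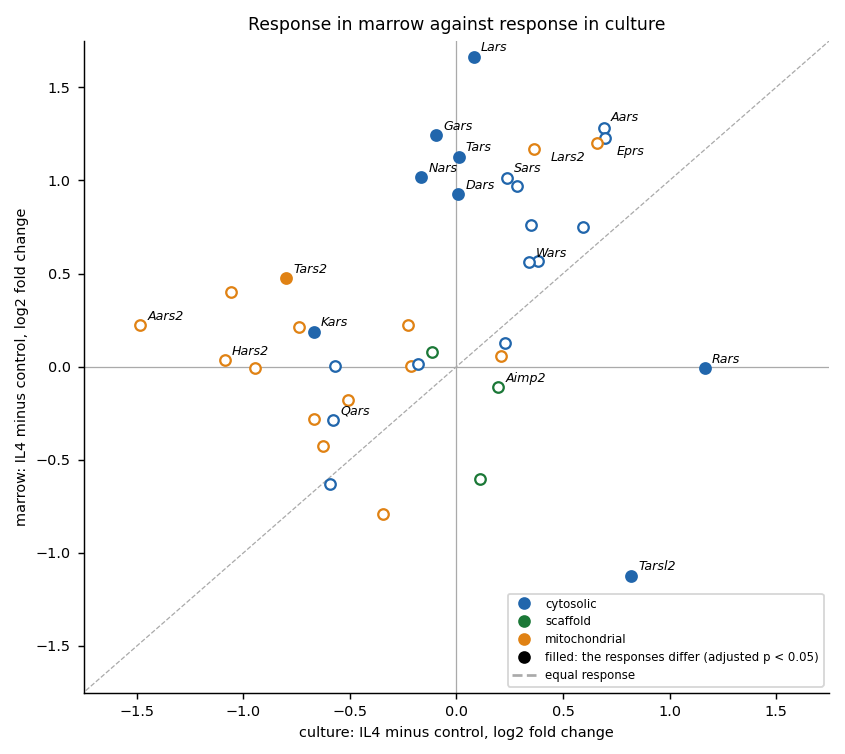
Log2 fold change with IL4 in marrow (y axis) against that in culture (x axis) for the 39 members; filled points are the 9 whose responses differed and the dashed line marks equal responses. Lars, Gars, Tars, Nars and Dars lie high at culture changes near 0, and Rars and Tarsl2 lie at the right, at or below 0 in marrow.

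Wars, the tryptophanyl enzyme, is also an interferon-inducible gene. In marrow it had 4.26, 4.30 and 4.47 with IL4, against 3.80, 3.83 and 3.70 without it. In culture it had 3.82, 3.94, 4.05 and 3.61 with IL4, against 3.45, 3.73, 3.64 and 3.23 without it. The marrow groups did not overlap and the culture groups did, but the gene passed in neither (0.56 ± 0.19 and 0.34 ± 0.18, adjusted p = 0.0735 and 0.165) and passed in both after centring (0.67 ± 0.19 and 0.70 ± 0.17, adjusted p = 0.0388 and 0.0118). The counts of this and the following gene lists stand against 6.7% of all genes risen and 11.5% fallen in marrow, and 7.96% risen and 32.6% fallen in culture. After median centring those shares were 9.45% and 8.92% in marrow, and 14.4% and 12.7% in culture. Of 20 interferon genes measured, Wars included, 0 rose and 4 fell in marrow by limma, led by Rsad2 (-2.17 ± 0.27), an antiviral enzyme, and Ifit2 (-0.83 ± 0.23). In culture 2 rose and 14 fell, led by Oas2 (-6.05 ± 0.56), a sensor of double-stranded RNA, while the GTPase gene Gbp2 rose (2.44 ± 0.34). After centring 1 (Wars) rose and 2 fell in marrow, and 4 (Gbp2, Usp18, Wars and Gbp3) rose and 9 fell in culture. In marrow 8 of the 20 had an unadjusted p below 0.05 at the deposited scale.

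Among genes of the amino acid response outside the synthetases, many rose in marrow and fewer in culture, a difference between the counts that was not tested. Of 29 measured, 21 rose and 1 fell in marrow, with a median log2 change of 1.33, and 11 rose and 0 fell in culture, with a median of 0.68. After centring 22 rose and 1 fell in marrow, with a median of 1.44, and 18 rose and 0 fell in culture, with a median of 1.04. The medians over all genes at the deposited scale were -0.06 in marrow and -0.36 in culture. In marrow the smallest p-values were those of Atf5, a transcription factor of the stress response (4.48 ± 0.35), and Slc7a5, a transporter of large neutral amino acids (1.68 ± 0.17). Atf4 itself rose in marrow (0.96 ± 0.13, adjusted p = 0.00141) and not in culture (0.21 ± 0.20, adjusted p = 0.42), and that difference did not pass (0.75 ± 0.27, adjusted p = 0.0539). In culture they were those of the alanine transaminase Gpt2 (2.94 ± 0.35) and the cystine transporter Slc7a11 (2.97 ± 0.46). The member that fell in marrow was Cebpb (-1.80 ± 0.28), a C/EBP factor that rose in culture (1.86 ± 0.33). The core TGATGNAA stood in 6 of 26 matched promoters of this list, or 23.1%, against 2.76% of the 7322 tested genes with a matched promoter. That difference was not tested. Summed, the list had 4027 to 4913 RPM in marrow IL4 libraries and 2313 to 2470 in marrow controls, and 2647 to 5022 in culture IL4 libraries and 1968 to 2652 in culture controls.

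Genes of the pathway that senses uncharged tRNA were counted in the same way. Of 16 genes of the eIF2 kinases, their regulators, eIF2 and its exchange factor eIF2B, 2 rose and 1 fell in marrow. The marrow risers were the eIF2B subunits Eif2b2 (1.09 ± 0.27) and Eif2b5 (0.45 ± 0.13). In culture 2 rose, the regulators Ppp1r15b and Impact, and 3 fell. Read against the shares of all genes, these counts are no result about the list. After centring the marrow counts were again 2 and 1, and in culture 3 rose and 1 (Eif2ak2) fell. In marrow Eif2ak1 fell, as given above. The culture calls of smallest p were Eif2ak2, the kinase PKR (-1.36 ± 0.23), and Gcn1l1, the partner of GCN2 (-0.69 ± 0.15), both lower with IL4, of which Gcn1l1 did not pass after centring. GCN2, encoded by Eif2ak4, gave 0.22 ± 0.37 in marrow and -0.00 ± 0.18 in culture. These are RNA levels and say nothing of kinase activity.

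Other genes of translation, tRNA handling and growth regulation were also followed. Of 10 genes of cytosolic elongation, release and related factors, 4 rose and 0 fell in marrow. The list includes Eef2k, which encodes the kinase of elongation factor eEF2. The marrow risers were Eif5a (0.53 ± 0.12), Eef1b2 (0.52 ± 0.12), Eef2k and Eef1a1. In culture 1 rose and 6 fell, among them Eef2k (-1.43 ± 0.19) and the selenocysteine factor Eefsec. After centring 4 rose and 0 fell in marrow, and in culture 1 rose and 2 fell, so the falls of Eef1a1, Eef2, Eef1b2 and Eef1d in culture depend on the scaling. Of 12 mitochondrial translation factor genes 0 passed in either experiment by limma, with medians of -0.18 in marrow and -0.39 in culture, and 0 in marrow and 2 in culture had an unadjusted p below 0.05; 0 passed after centring. Of 26 genes of tRNA processing, editing and export, 1 rose and 1 fell in marrow. Read against the shares of all genes, these marrow counts are no result about the list. The riser was Xpot, the exporter of tRNA from the nucleus (1.28 ± 0.17, adjusted p = 0.00134), which did not pass in culture (-0.03 ± 0.15). Xpot is also on the amino acid response list and was counted among its marrow risers. In culture 1 rose and 4 fell, led by Sephs2 (-1.87 ± 0.19). After centring 1 rose and 0 fell in marrow, and 3 rose and 3 fell in culture. Of 21 genes of MYC and mTORC1 growth regulation, Myc rose in marrow (1.17 ± 0.24) and in culture (1.05 ± 0.24); 0 others rose in either at the deposited scale, and 7 fell in culture, led by Rragc (-0.60 ± 0.10). After centring Myc and Flcn rose in marrow, and in culture 4 (Myc, Lamtor1, Tsc1 and Rheb) rose and 0 fell, so each of the 7 falls depends on the scaling.

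Genes of dividing cells were lower with IL4. Of 25, 0 rose and 21 fell in marrow, at 4591 to 5249 RPM with IL4 and 9411 to 10500 without it, led by Mki67 (-1.62 ± 0.15) and Ccna2 (-1.56 ± 0.16), and 23 fell in culture, led by Mki67 (-3.08 ± 0.44). After centring 21 fell in marrow, and 1 (Pcna) rose and 18 fell in culture. Genes listed as markers of other cells also differed in marrow, and several of them changed with IL4 in culture too. Of the 3 neutrophil genes Ngp fell (-0.89 ± 0.20) while S100a8 and S100a9 did not pass. The erythroid genes measured, Tfrc and Car2, had 192 to 268 RPM with IL4 and 1472 to 1537 without it. Both rose in culture, at 446 to 1244 RPM with IL4 and 63.5 to 171 without it. In marrow 3 B cell genes had 45.8 to 82.2 RPM with IL4 and 160 to 179 without it. Of these Cd22 and Blnk rose in culture and Cd79b fell. Eosinophil genes, 3 measured, had 377 to 516 RPM in marrow with IL4 and 129 to 171 without it. Their culture sums were 612 to 2138 with IL4 and 13.1 to 25.7 without it, where only Ear2 passed, as a riser. Of 7 macrophage genes 2 rose (Mrc1, Mertk) and 4 fell (Lyz2, Fcgr1, Csf1r, Cd68), and of 5 monocyte genes 1 rose (Chil3, at 2.95) and 3 fell (Ccr2, Fn1, F13a1). Megakaryocyte genes, 3 measured, had 278 to 367 RPM with IL4 and 90.5 to 123 without it. Of these only Itgb3 passed in marrow, and it also rose in culture. Endothelial and stromal genes, 4 measured, had 139 to 230 RPM in marrow with IL4 and 33.9 to 51.3 without it. Pecam1, Col1a2 and Sparc passed there as risers, and Col1a1 did not pass. Their culture sums were 86.7 to 211 with IL4 and 727 to 1801 without it, where Pecam1 rose and Col1a1, Col1a2 and Sparc fell. The progenitor genes Cd34 and Sox4 had 49.7 to 80.9 in marrow with IL4 and 72.6 to 106 without it. The lymphoid gene Il7r had 3.66 to 5.74 in marrow with IL4 and 37.1 to 54.3 without it, and rose in culture. The part of these shifts in the synthetase differences was not tested.

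Reads of a few members cannot be assigned with certainty. Of the 39 longest transcripts 7 shared more than 5% of their 50-base stretches with another gene's transcript on either strand. Iars2 shared 36.6% with Rab3gap2 on the opposite strand, Aimp2 38.6% with Eif2ak1, Aars 22.4% with Exosc6 and Iars 8.61% with Gm4849. Hars and Hars2, on opposite strands, shared 146 stretches with each other. Of these only Aars and Iars were among the risers.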

How the data were processed

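The library kit (TruSeq RNA v2) does not mark strand, and its use is stated per the labels' protocols; bcl2fastq, TopHat2 2.0.13 and build mm10 are named in the submitters' processing notes, while counting, normalization and strand use are steps not given in the sources used here. The authors deposited log2 values, each shifted by a constant per gene, so levels were compared between genes only from recovered reads per transcript length. Values were fitted in limma 3.58.1 (R 4.3.3) with a variance trend, each table alone, IL4 minus control; the difference between experiments used all 14 libraries. P-values were adjusted by Benjamini-Hochberg over 9474 genes. Whole reads were recovered for 99.3% of genes, with residuals of at most 0.000113 (log2) for the members. The fit was tested on simulated data. Members and lists were chosen with earlier results of these data known. Named in full were, per experiment, at most 8 members past the threshold by p, at most 4 for the difference, and Wars, Aars, Eprs, Sars, Lars2 and Aimp2; of each gene list, the 2 of smallest p. Gene positions came from GENCODE M21 and RefSeq GRCm38.p6. A few items are counted but not reported here. Alternatives are given in the closing section.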

Additional observations from a re-analysis of the deposited data

Results flagged for a closer look

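Of 78 gene and group combinations with 4 libraries, 4 held a library far from the other 3, and chance gives about 1 in 20. All 4 were in the culture IL4 group. Aimp1 was at 5.05 (deposited log2 value) in replicate 2, against 5.51 to 5.56 in the others. In replicate 4, Cars2 was at 8.08 against 6.86 to 7.02, Nars at 6.08 against 6.63 to 6.69, and Yars at 2.76 against 3.87 to 4.04.

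The marrow and culture responses to IL4 differed by a test of the difference itself for 9 members (limma, adjusted p below 0.05), 7 higher in marrow and 2 lower. Of all genes 16.6% were called higher and 6.45% lower, so the members' count is near the share of all genes. The marrow minus culture log2 fold change was 1.58 for Lars, 1.34 for Gars, 1.27 for Tars2, 1.18 for Nars, 1.12 for Tars, 0.92 for Dars and 0.86 for Kars. It was -1.17 for Rars and -1.94 for Tarsl2. Cells, IL4 source and library set differ between the experiments and cannot be told apart here.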

How the results depend on the processing

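In marrow the count of risen members stayed between 10 and 14 under every alternative. The 1 fallen member, Tarsl2, was lost (0 fallen) under median centring, quantile normalization, the replicate block with or without centring, and each single library left out (0 to 0, also with centring); recovered reads with a prior count of 2 gave 2 fallen. In culture 4 members rose in the fit as reported, and 9 under median centring, 10 under quantile normalization, 11 with recovered reads, 10 under the replicate block with centring, and 15 with both libraries numbered 4 left out and centring. Leaving out single culture libraries gave 2 to 9 risen and 3 to 7 fallen, and with centring 5 to 15 risen and 0 to 1 fallen. The count of fallen culture members was 0 in each of those centred, quantile and recovered-read fits that used all libraries or left out both numbered 4. Responses differed for 7 to 10 members with single libraries left out, 5 to 8 with centring as well, and 5 under the replicate block with centring.

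For the culture change of Nars, -0.17 as reported, the sign turned with centring to 0.34 without IL4 replicate 4 and to 0.36 without both libraries numbered 4. Among the differences, Kars was lost in 25, Tars2 in 19, Tars in 13, Gars in 4 and Dars in 2 of 38 fits. The causes were not tested. The replicate block gave 13 risen and 0 fallen in marrow, 4 and 5 in culture, and 8 differing members. Each gene's group mean was subtracted, and the remaining deviations over all genes were correlated between IL4 and control libraries. Same-numbered libraries gave -0.045 to 0.022 in culture and 0.026 to 0.059 in marrow, so the numbers were not taken as pairs. In marrow, but not in culture, the deviations of each library correlated best with those of its own number. Median centring with single libraries left out, and leaving out both libraries numbered 4, were chosen after seeing the data. Low reads limit the mitochondrial genes most.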
